A study of Mus musculus with 8 samples.

Results

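Leukaemia inhibitory factor (Lif), interleukin 6 (Il6), their receptor chains Lifr, Osmr and Il6st, the kinases Jak1 and Jak2, the transcription factor Stat3 and its feedback inhibitor Socs3 were followed in a map of H3K27ac, a histone acetylation that marks active regulatory DNA. These 9 genes were taken as a named list from the 21887 protein-coding genes of the RefSeq annotation of mm10 (GRCm38.p6), and all 9 were found there. The cells were satellite cells, the stem cells of skeletal muscle, of C57BL/6 mice, and no genotype other than the strain is given in the labels. Freshly isolated satellite cells (FISC) came from untreated muscle. Activated satellite cells (ASC) came from muscle taken 2.5 days after injury with BaCl2. Each condition had 2 H3K27ac libraries, made by ChIPmentation, in which antibody-bound chromatin is tagged by a transposase. The labels give neither the age of the mice nor the number pooled, nor whether replicates were separate animals. P-values below thus speak only to how far these libraries scatter, possibly for technical reasons.

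LIF and IL-6 are secreted cytokines that signal through a shared receptor chain, gp130, the product of Il6st. LIF pairs gp130 with the LIF receptor, IL-6 uses its own receptor alpha chain, and oncostatin M can pair gp130 with the product of Osmr. Receptor-bound JAK kinases phosphorylate STAT3, which enters the nucleus and induces genes that include Socs3, whose product blocks the receptor and its kinases. In injured muscle these cytokines are known as signals that act on satellite cell proliferation and differentiation.

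Of the 10 annotated promoters of these genes, 4 held a short motif searched for, and these 4 are shown. A match does not set apart the genes at which covered length differed, since Lifr, Stat3, Jak1 and Jak2 were called below without one. Within 2 kb of the annotated start 0 of 8 members tested were called, beside 26.9% higher and 3.38% lower of 10294 genes. Each runs from 250 bases before to 50 bases after a RefSeq start site on GRCm38.p6, 5′ to 3′ on the gene's strand. Capitals mark the match to the AP-1 motif TGANTCA or, in Socs3, to the STAT motif TTCNNNGAA, both of which read the same on both strands. The Lif promoter is at chr11:4257318-4257617 on the plus strand, with its match starting 228 bases before the start site. The Il6 promoter is at chr5:30012864-30013163 on the plus strand, with its match 249 bases before the start. The Osmr promoter is at chr15:6874264-6874563 on the minus strand, with its match 3 bases after the start. The Socs3 promoter is at chr11:117969317-117969616 on the minus strand, with its match 154 bases before the start.
Lif: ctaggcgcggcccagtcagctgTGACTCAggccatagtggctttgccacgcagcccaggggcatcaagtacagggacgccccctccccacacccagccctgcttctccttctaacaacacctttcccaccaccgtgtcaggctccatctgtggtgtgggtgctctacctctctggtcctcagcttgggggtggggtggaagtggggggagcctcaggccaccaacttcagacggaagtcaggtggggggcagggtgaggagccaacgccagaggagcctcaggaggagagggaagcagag
Il6: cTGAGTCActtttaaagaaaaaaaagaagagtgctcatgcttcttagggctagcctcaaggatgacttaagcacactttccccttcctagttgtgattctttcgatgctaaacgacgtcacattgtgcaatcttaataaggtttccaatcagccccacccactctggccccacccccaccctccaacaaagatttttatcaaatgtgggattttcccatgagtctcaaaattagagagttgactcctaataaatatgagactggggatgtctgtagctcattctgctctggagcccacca
Osmr: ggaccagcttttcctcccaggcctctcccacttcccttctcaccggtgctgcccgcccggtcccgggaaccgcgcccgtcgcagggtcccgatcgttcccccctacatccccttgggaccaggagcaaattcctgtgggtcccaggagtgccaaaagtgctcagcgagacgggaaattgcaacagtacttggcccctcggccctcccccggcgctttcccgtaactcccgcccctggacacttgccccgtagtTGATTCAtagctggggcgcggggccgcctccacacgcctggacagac
Socs3: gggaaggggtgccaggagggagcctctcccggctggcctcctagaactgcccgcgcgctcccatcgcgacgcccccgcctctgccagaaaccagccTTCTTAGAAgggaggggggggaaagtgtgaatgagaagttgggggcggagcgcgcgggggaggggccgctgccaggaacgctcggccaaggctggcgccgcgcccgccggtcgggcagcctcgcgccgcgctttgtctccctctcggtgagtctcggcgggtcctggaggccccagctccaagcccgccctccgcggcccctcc
The AP-1 letters occur in 6.99% (1486) and the STAT letters in 7.69% (1636) of 21263 promoters of this length, and a match is a description of the letters, not a bound site. The promoters also differed in CpG content, which separates a large class of promoters active in many cell types from more restricted ones. The Il6 promoter held 3 CpG dinucleotides and that of Lif 7, both under the median of 13 over all promoters. The promoter of Jak2 held 44, that of Il6st 33 and the upstream start of Lifr 53.

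What was compared is breadth, the length in kb that lies under the authors' peaks, because peak lists hold no read counts. It was summed within 2 kb of either gene end (end breadth), in the gene outside those windows (body breadth) and from 2 to 50 kb outside the gene (flank breadth). The annotation used here gives no exons, so sites in the body are placed only by their distance from the start site. The ASC lists held 50154 and 54700 peaks covering 49.2 and 57.7 Mb, and the FISC lists 45014 and 43092 peaks covering 34.4 and 33.7 Mb. Read depth is not recorded in them and is unknown. Over all genes tested with limma, the median difference, ASC minus FISC, was therefore 0.304 kb for end, 0.526 kb for body and 0.963 kb for flank breadth before any member is considered. When each library was divided by its total covered length these medians became -0.345, 0.157 and -0.259 kb. When the lists were cut to equal covered length they became 0.186, -0.153 and 0.0885 kb. The share of calls that were higher in ASC moved with them, for end breadth from 88.0 to 20.1 and 54.7%, for body breadth from 81.5 to 63.8 and 38.3%, and for flank breadth from 89.0 to 44.1 and 46.6%.

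Calls among the signalling genes are given by measure, each beside its share over all genes. In the gene body, 4 of 8 members tested rose (Lifr, Osmr, Stat3 and Jak1) and 1 fell (Jak2). Among all 6528 genes tested there, 42.8% rose and 9.73% fell, so the share of members called was near the background. In the flank, 3 of 7 members tested rose (Lif, Socs3 and Jak1) and 0 fell, against 46% higher and 5.71% lower among 15985 genes, which is near the background too. Within 2 kb of the gene ends, 0 of 8 members tested rose and 1 fell (Lif), against 26.5% higher and 3.61% lower among 12924 genes. At an unadjusted limma p under 0.05 another 2 (Il6 and Socs3) were higher at the ends, and 0 were lower in the flank. Over all genes 6000 of 12924 had such a p in end breadth, in either direction. Genes had to be covered in at least 2 libraries to be tested, which left out the ends of Lifr, the body of Il6 and the flanks of both. Il6 at its ends and Osmr and Jak2 in the body passed that filter through 1 condition alone, so their counts carry no support of their own. Over the members tested the median difference was 0.178 kb for end, 1.17 kb for body and 0.215 kb for flank breadth. All calls are limma fits over all genes with Benjamini-Hochberg adjustment at 0.05, and with 2 libraries against 2 an exact permutation test cannot go below 0.333. The count of higher body calls fell to 0 at equal covered length, and the count of higher flank calls to 1 (Lif). Of all genes, 19.6% in body and 18.4% in flank breadth were higher in that setting. After division by total covered length 5 members were called lower in end breadth (Lif, Osmr, Il6st, Stat3 and Jak2). Of all genes, 36.6% were lower and 9.19% higher in end breadth after that division.

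**Figure D1:**
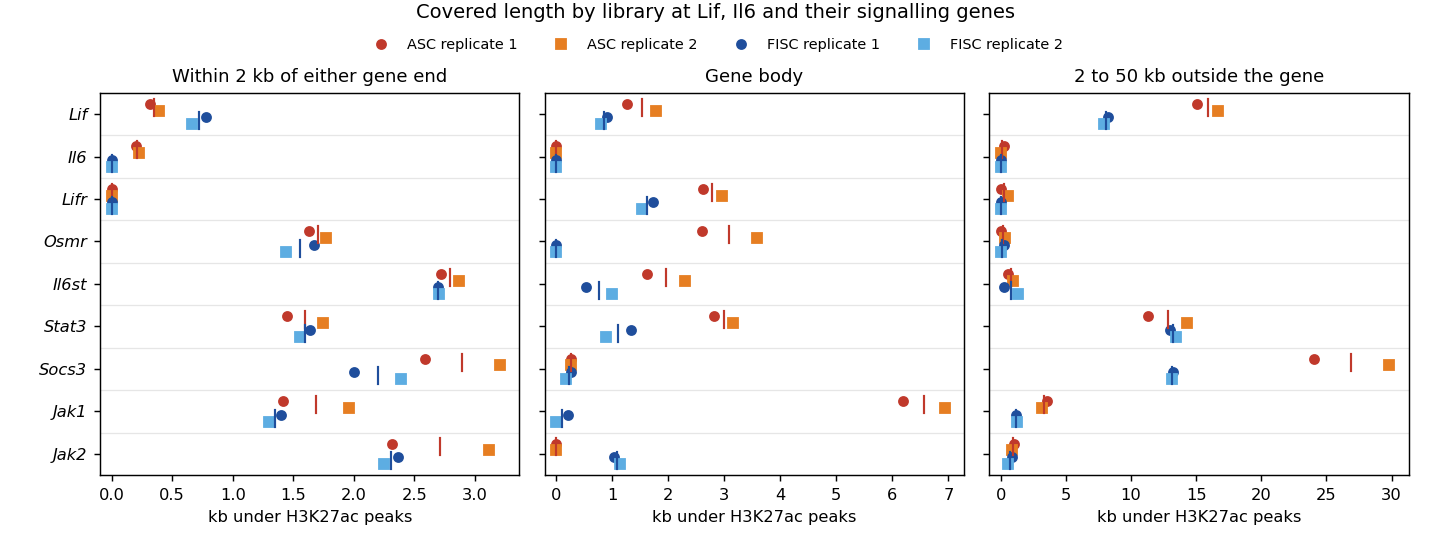
Length under H3K27ac peaks (kb, x axis) at each gene (y axis) within 2 kb of either gene end, in the gene body and 2 to 50 kb outside the gene; each point is 1 library and each vertical tick the mean of 2. The groups stand apart most in the body of Jak1 (6.18 and 6.93 against 0.212 and 0 kb) and in the flanks of Lif and Socs3, while the end values of Il6st, Stat3 and Osmr lie close together.

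**Figure D2:**
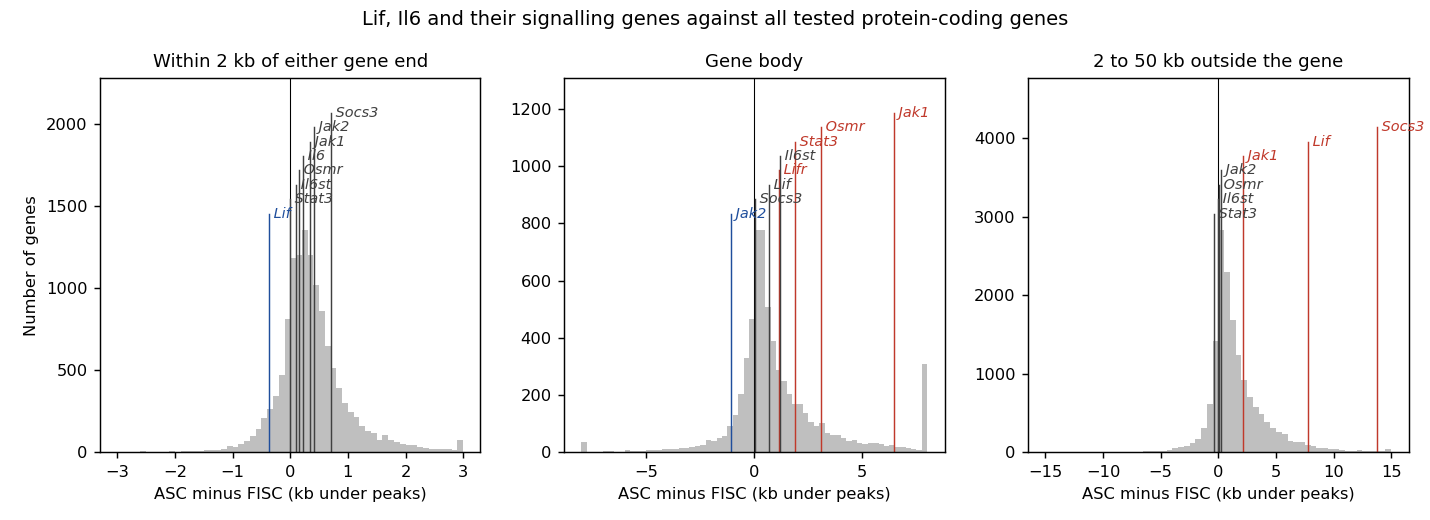
Number of genes (y axis) by difference in breadth, ASC minus FISC (kb, x axis), for all genes tested in each measure, with values past the axis placed in the outermost bins. Coloured lines mark members called higher (red) or lower (blue) and grey lines those not called; in the flank panel Socs3 (13.8 kb) and Lif (7.80 kb) lie in the right tail.

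The ligand gene Lif (chr11:4257568-4272514, plus strand) carried no peak within 2 kb of its annotated start in any of the 4 libraries. Its acetylation lay inside the gene, at its 3′ end and beyond. Flank breadth was 15.036 and 16.7 kb in the ASC libraries and 8.27 and 7.89 kb in the FISC libraries. Both ASC values lay above both FISC values, and the means of 15.9 ± 1.18 and 8.08 ± 0.267 kb (SD, n = 2) differed 1.97-fold. The difference of 7.80 kb (SE 1.16) passed the test (limma adjusted p = 0.00278) and ranked 543 of 15985 genes. It kept its direction at equal covered length (5.37 kb, adjusted p = 0.0357) and after division by total covered length (2.65 kb, 0.0109). Without FISC replicate 1 the limma adjusted p was 0.0519, and without FISC replicate 2 it was 0.0713.

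Most of this length lay in 4 regions beyond the 3′ end of Lif, between chr11:4291306-4311308, a group chosen after its values were seen. It starts 18.8 kb past the gene end and overlaps Gm11958, a gene not annotated as protein-coding. Covered length in the group was 14.4 and 15.996 kb in ASC against 6.83 and 7.31 kb in FISC. Within 20 kb of the gene the flank difference was 0.267 kb (limma adjusted p = 0.463), so the higher length sat farther out than that. The widest region of the group, chr11:4296011-4304105 (8095 bases), was present in all 4 libraries. It was covered over 7954 and 7843 bases in ASC and 5185 and 6180 bases in FISC. The region beside it at chr11:4307778-4311308 was covered over 3022 and 3531 bases in ASC, over 366 bases in FISC replicate 1 and not at all in FISC replicate 2. FISC libraries thus held pieces of the same stretch, and ASC libraries held longer peaks over it. The flank of Lif also reaches Castor1, Osm and Tbc1d10a. Without stretches in or within 2 kb of other protein-coding genes it was 14.6 and 15.996 against 7.40 and 7.31 kb (difference 7.96 kb, limma adjusted p = 0.00484), rank 96 of 8036 genes.

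Within Lif the values were lower at the 3′ end in ASC and not separated by the test in the body. The only peak of the end windows was a region in all 4 libraries at chr11:4270862-4271641, 13.7 kb from the start. End breadth was 0.316 and 0.390 kb in ASC and 0.780 and 0.665 kb in FISC. This fell by 0.370 kb (SE 0.0974, limma adjusted p = 0.0461), the only end call among the members. The call was close to the threshold, and it was lost in 11 other settings, with adjusted p between 0.0549 and 0.536, among them each removal of 1 library. Body breadth was 1.27 and 1.77 kb in ASC and 0.909 and 0.791 kb in FISC (difference 0.671 kb, adjusted p = 0.0881). Its 1 region seen in both ASC and neither FISC library was chr11:4261346-4261934 (589 bases), 4.07 kb from the start.

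Il6 (chr5:30013114-30019975, plus strand), which encodes interleukin 6, had the least acetylation of the 9 genes. End breadth was 0.2 and 0.225 kb in ASC and 0 in both FISC libraries, and body breadth was 0 in all 4. The difference of 0.213 kb did not pass (SE 0.0715, limma adjusted p = 0.0793). It came from 1 region, chr5:30013142-30013366 (225 bases), just inside the start and within 2 kb of A230098N10Rik, a gene not annotated as protein-coding. The authors' fold enrichment there was 3.28 and 3.37, which placed the peaks at 95.6 and 85.9% of the way down their own lists ranked from strongest to weakest. These are weak peaks in each list. Flank breadth was 0.230 kb in ASC replicate 1 and 0 elsewhere. Out to 100 kb it was 2.27 and 3.26 kb in ASC and 0.875 and 0.825 kb in FISC, a 3.25-fold difference that passed (limma adjusted p = 7.29e-05). By size that difference, 1.915 kb, ranked 8865 of 17983 genes, and stretches over other genes were counted in it. At that distance 7 of the 9 members were called higher, where 55.4% of 17983 genes were, and Lifr was tested there through its ASC libraries alone.

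By distance over their 12 breadth values, the genes most like Lif among 15675 were Rnf181 (2.27 kb), Spi1 (2.43 kb) and Tox2 (2.66 kb). Those most like Il6 were Daw1 (0.176 kb), Otx1 (0.251 kb) and Maged2 (0.261 kb), all with short end peaks in ASC and none in FISC.

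**Figure D3:**
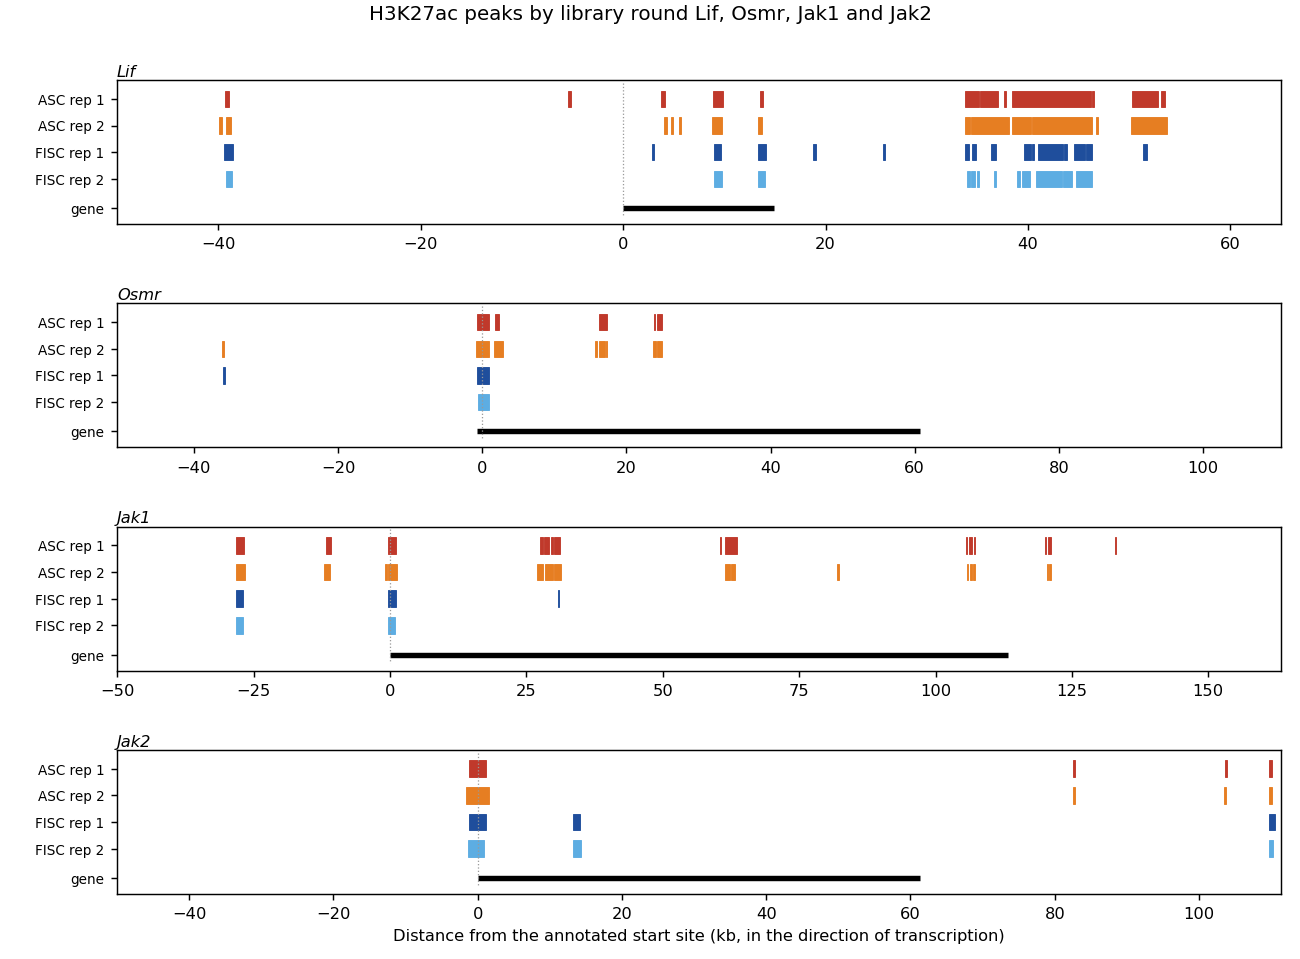
H3K27ac peaks of each library (bars) by distance from the annotated start site (kb, x axis, in the direction of transcription) at Lif, Osmr, Jak1 and Jak2, with the gene as a black line. ASC peaks fill the stretch past the Lif end, sites inside Osmr and Jak1 appear in ASC, and a site 13.8 kb inside Jak2 appears in FISC.

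Among the receptor chains, Osmr and Lifr rose in the body, and Il6st was broadly acetylated at its start in every library. Osmr (chr15:6813568-6874968, minus strand) encodes the oncostatin M receptor. Its body breadth was 2.60 and 3.58 kb in ASC and 0 in both FISC libraries. Body breadth of Osmr was tested through its ASC libraries alone, so these values are given as a description. The difference of 3.09 kb (SE 0.398) rests mainly on 4 regions found in both ASC and neither FISC library. The 2 widest, of 1166 bases each, lay at chr15:6871480-6872645 and chr15:6856929-6858094, 2.25 and 16.8 kb from the start. The peaks of these 4 regions ranked between 33.0 and 92.9% down their lists, so they are of middle to low strength. After division by total covered length the body difference was 2.51 kb. At equal covered length the body was covered in fewer than 2 libraries and was not tested.

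The start of Osmr differed less than its body. Region chr15:6873333-6875102 was present in all 4 libraries. End breadth was 1.63 and 1.77 kb in ASC and 1.67 and 1.44 kb in FISC, with overlapping groups (difference 0.144 kb, limma adjusted p = 0.481). In a window centred on the annotated start, which reaches the nearer of the new sites, it was 1.89 and 2.10 against 1.67 and 1.44 kb (adjusted p = 0.0832). Flank breadth was 0.310 kb or less in each library.

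Lifr (chr15:7090610-7197489, plus strand) encodes the LIF receptor chain, and both of its annotated starts lie inside the gene span given by the annotation. Its end windows therefore hold no start site and were uncovered in all 4 libraries, and the start is counted in the body. Body breadth was 2.62 and 2.95 kb in ASC and 1.72 and 1.53 kb in FISC. The ASC values lay above the FISC values, with means of 2.79 ± 0.230 and 1.63 ± 0.134 kb (SD, n = 2). The difference of 1.16 kb (SE 0.244) passed (limma adjusted p = 0.0252). It did not pass at equal covered length (0.0195 kb, adjusted p = 0.941), after division by total covered length (0.197 kb, 0.438) or with the replicate number as a block (0.0549). Without ASC replicate 2, FISC replicate 1 or FISC replicate 2 the adjusted p was 0.0707, 0.127 or 0.174. The CpG-rich start carried 1 region in all 4 libraries, chr15:7128576-7130349 (1774 bases), covered over 1.53 and 1.76 kb in ASC and 1.47 and 1.53 kb in FISC within 2 kb of the start (adjusted p = 0.447). A further site 10.8 kb before that start, chr15:7118330-7119132, was covered over 803 and 598 bases in ASC, 251 bases in FISC replicate 1 and 0 in FISC replicate 2. Flank breadth of Lifr was 0.534 kb in ASC replicate 2 and 0 in the other libraries.

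Il6st (chr13:112464070-112506860, plus strand), the gene of gp130, had an end breadth of 2.72 and 2.87 kb in ASC and 2.69 and 2.71 kb in FISC. The difference was 0.0970 kb (SE 0.145, limma adjusted p = 0.632). Its start region chr13:112463201-112467120 spans 3920 bases, and the strongest peak in it ranked in the top 0.589 to 1.49% of each of the 4 lists. In the body the values were 1.61 and 2.30 kb in ASC and 0.539 and 1.00 kb in FISC, a difference of 1.18 kb that missed the threshold (adjusted p = 0.0537). With the replicate number as a block it passed (0.0276), and at equal covered length the difference was -0.602 kb. All of the FISC body length, and part of that in ASC, belonged to the start region, which runs past the 2 kb window. The 1 site seen in both ASC and neither FISC library was chr13:112482634-112484127 (1494 bases), 19.3 kb from the start. Flank breadth averaged 0.769 kb in both conditions.

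The kinase genes differed from each other. Jak1 (chr4:101151974-101265282, minus strand) had the largest body difference of the 9 genes, ranking 389 of 6528. Body breadth was 6.18 and 6.93 kb in ASC and 0.212 and 0 kb in FISC. The groups did not overlap, and the difference of 6.45 kb (SE 0.376) passed (limma adjusted p = 0.00478). It was 5.24 kb after division by total covered length (adjusted p = 0.00197) and 1.91 kb at equal covered length (0.152). Of the 16 regions within 50 kb of Jak1, 8 were found in both ASC and neither FISC library.

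Most of the body length of Jak1 lay in the sites that follow, grouped after their values were seen. The widest single site, chr4:101201690-101203877 (2188 bases), lay 62.4 kb from the start and was covered over 2092 and 1645 bases in ASC. A group of 3 regions at chr4:101233834-101238222, 27.5 to 30.8 kb from the start, was covered over 2.87 and 3.87 kb in ASC and 0.212 and 0 kb in FISC. A last group at chr4:101157906-101159609 held 0.972 and 0.990 kb in ASC and 0 in FISC. The start region chr4:101264029-101265611 was, by contrast, present in all 4 libraries and ranked within the top 1.49 to 2.75% of each list. End breadth was 1.41 and 1.96 kb in ASC and 1.40 and 1.30 kb in FISC (difference 0.339 kb, limma adjusted p = 0.265). So the start was acetylated in both conditions, and the inner sites were peaks almost entirely in ASC.

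Outside Jak1 the flank also rose. Flank breadth was 3.55 and 3.13 kb in ASC and 1.14 and 1.24 kb in FISC, with means of 3.34 ± 0.296 and 1.19 ± 0.0665 kb (SD, n = 2). The difference of 2.15 kb (SE 0.280, limma adjusted p = 0.00178) was 2.80-fold, and at equal covered length it was 0.395 kb (0.110). Without stretches in or within 2 kb of other protein-coding genes such as Raver2 it was 1.41 kb (adjusted p = 0.00708). A site 11.4 kb upstream of the start, chr4:101275967-101277290 (1324 bases), was found in both ASC and neither FISC library.

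Jak2 (chr19:29251803-29313095, plus strand) was the only member that fell in the body. Body breadth was 0 in both ASC libraries and 1.03 and 1.14 kb in FISC. Body breadth of Jak2 was tested through its FISC libraries alone, so these values are given as a description. The decrease of 1.08 kb (SE 0.0931) came from 1 site, chr19:29265005-29266141 (1137 bases), 13.8 kb from the start. The authors' fold enrichment of its peaks was 4.2 and 5.24, and they ranked 55.9 and 45.5% down their lists. At a minimum fold of 5 the body of Jak2 was covered in fewer than 2 libraries and was not tested, and the same held without either FISC library. The CpG-rich start was covered in every library by region chr19:29250223-29253337 (3115 bases). End breadth was 2.32 and 3.12 kb in ASC and 2.37 and 2.25 kb in FISC, with overlapping groups (difference 0.410 kb, adjusted p = 0.317). Flank breadth stayed under 1 kb in each library, at 0.988 and 0.881 kb in ASC and 0.856 and 0.584 kb in FISC (adjusted p = 0.299). The widest site there seen in both ASC and neither FISC library, chr19:29355248-29355641 (394 bases), lay in or within 2 kb of Plgrkt.

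**Figure D4:**
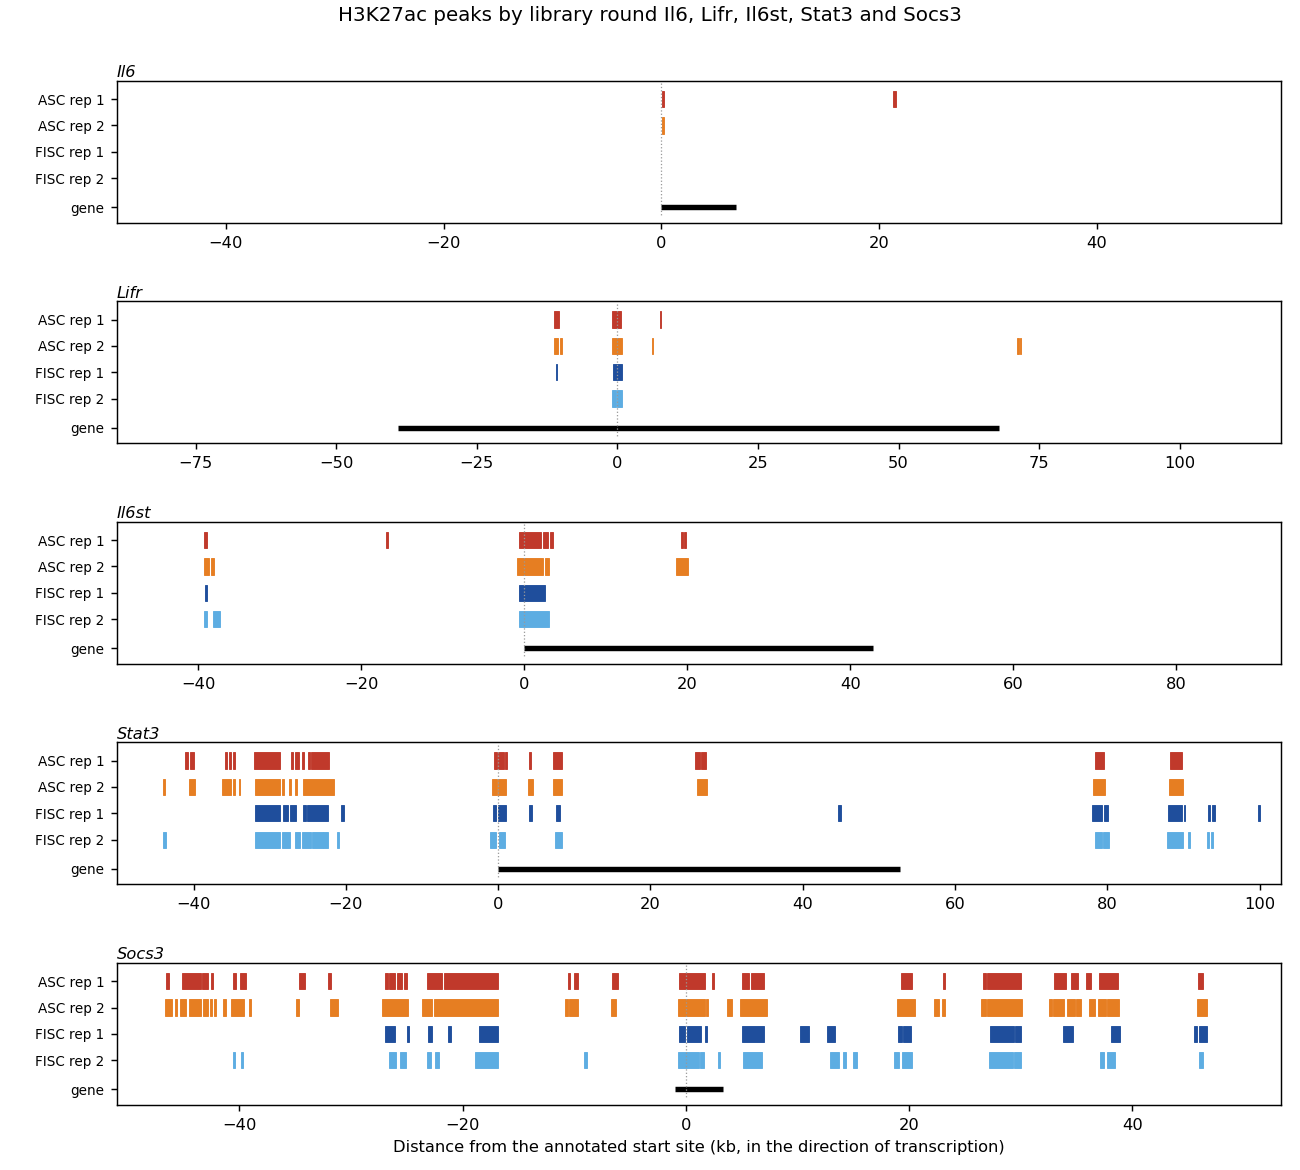
H3K27ac peaks of each library (bars) by distance from the annotated start site (kb, x axis, in the direction of transcription) at Il6, Lifr, Il6st, Stat3 and Socs3, with the gene as a black line. Start peaks of Lifr, Il6st, Stat3 and Socs3 are present in all 4 libraries, and Il6 has only short ASC peaks.

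Stat3 (chr11:100886806-100939594, minus strand), which encodes the transcription factor activated by these receptors, rose in the body and not at its start. Body breadth was 2.81 and 3.16 kb in ASC and 1.33 and 0.889 kb in FISC. The means of 2.99 ± 0.247 and 1.11 ± 0.312 kb (SD, n = 2) differed 2.69-fold, by 1.88 kb (SE 0.284, limma adjusted p = 0.0121). The difference was 1.03 kb after division by total covered length (adjusted p = 0.0363) and -0.498 kb at equal covered length (0.466). It did not pass without FISC replicate 1 (0.0529) or FISC replicate 2 (0.0789). The site seen in both ASC and neither FISC library, chr11:100912128-100913705 (1578 bases), lay 26.6 kb from the start and was covered over 1308 and 1361 bases in ASC.

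At the Stat3 start, region chr11:100938385-100939620 was present in all 4 libraries. End breadth was 1.45 and 1.75 kb in ASC and 1.64 and 1.56 kb in FISC. The groups overlapped and the means differed by -0.0015 kb (limma adjusted p = 0.996). Flank breadth was 11.3 and 14.3 kb in ASC and 13.0 and 13.5 kb in FISC (difference -0.415 kb, adjusted p = 0.826). Much of it lay at neighbouring genes. Around Cavin1, which encodes a caveolar coat protein, 3 regions chosen after their values were seen covered 6.82 and 8.17 kb in ASC and 7.82 and 8.23 kb in FISC. The only sites of the Stat3 flank seen in both FISC and neither ASC library lay in Stat5b, the wider at chr11:100845378-100845960 (583 bases). Without stretches in or within 2 kb of other protein-coding genes the flank was 1.61 and 2.70 kb in ASC and 0 and 0.326 kb in FISC. That difference of 1.99 kb passed (adjusted p = 0.0242). With all stretches counted, the Stat3 flank was called lower at equal covered length, as were 21.1% of all genes. It was also called lower after division by total covered length, as were 31.1%.

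Socs3 (chr11:117966079-117970336, minus strand), the feedback inhibitor that STAT3 induces, rose in the flank. Flank breadth was 24.0 and 29.8 kb in ASC and 13.2 and 13.1 kb in FISC. The means of 26.9 ± 4.1 and 13.2 ± 0.0495 kb (SD, n = 2) differed 2.04-fold, by 13.8 kb (SE 2.36, limma adjusted p = 0.00471), rank 67 of 15985 genes. The difference was 5.08 kb after division by total covered length (adjusted p = 0.00406) and -1.72 kb at equal covered length (0.297). Within 20 kb of the gene it was 2.68 kb (0.0443).

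Much of the added length around Socs3 lay over the neighbouring gene Pgs1, which encodes an enzyme of mitochondrial lipid synthesis. In 14 regions there, grouped after their values were seen, covered length was 12.2 and 14.9 kb in ASC and 3.52 and 4.33 kb in FISC. The widest of them, chr11:117986170-117992974 (6805 bases), was covered over 6238 and 6624 bases in ASC and 2328 and 2798 bases in FISC. The widest site seen in both ASC and neither FISC library, chr11:118012789-118014663 (1875 bases), also lay in Pgs1. Without stretches in or within 2 kb of other protein-coding genes the flank was 11.8 and 14.9 kb in ASC and 9.67 and 8.80 kb in FISC. That difference of 4.12 kb did not pass (limma adjusted p = 0.0645). Which gene the Pgs1 sites act on was not tested. One site on the other side, chr11:117955673-117956711 (1039 bases), was seen in both FISC and neither ASC library.

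At Socs3 itself, region chr11:117967343-117970082 covered the start in all 4 libraries. End breadth was 2.59 and 3.21 kb in ASC and 2.01 and 2.39 kb in FISC. Both ASC values lay above both FISC values, but the difference of 0.699 kb did not pass (SE 0.270, limma adjusted p = 0.107). With the replicate number as a block it passed (adjusted p = 0.0454). The body outside the end windows is 0.258 kb long and was fully covered in 3 libraries.

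Counted by region, the 9 loci held 120 union regions within 50 kb of the genes. Of these 31 (25.8%) were found in both ASC and neither FISC library, where 18.9% of 63774 regions near any protein-coding gene were. Another 4 (3.33%) were found in both FISC and neither ASC library, against 7.06%. All 4 libraries shared 29. Socs3 held 10 of the 31, Jak1 8, and Osmr and Stat3 4 each, while Lifr held 0. Regions around one gene are neighbours and not independent of each other.

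A list of 56 further genes of the pathway shows the same libraries at other ligands, receptors, kinases, STATs, inhibitors and targets. In end breadth 9 of 48 tested rose and 4 fell, where 26.5% of all genes rose and 3.61% fell, with a list median of 0.233 kb. In body breadth 10 of 25 tested rose and 3 fell (median 0.466 kb), beside 42.8 and 9.73% of all genes. Some of these genes, such as Tyk2, Socs5 and Ptpn11, were tested there through the libraries of a single condition. These body counts thus carry no support of their own. In flank breadth 28 of 55 rose and 2 fell (median 1.51 kb), beside 46 and 5.71%. The flank median lay above that of all genes as covered (0.963 kb) and below it after division by total covered length (-0.429 against -0.259 kb). After division by total covered length the calls were 2 higher and 23 lower in end, 6 and 8 in body, and 9 and 17 in flank breadth. The shares of all genes called were then 9.19% higher and 36.6% lower, 36.0 and 20.5%, and 24.5 and 31.1%. At equal covered length the list had 5 and 5, 4 and 4, and 10 and 13 calls, beside 15.8 and 13.1%, 19.6 and 31.6%, and 18.4 and 21.1% of all genes.

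Among the other ligands and receptors, Cntf, the gene of ciliary neurotrophic factor, was covered at its ends over 1.02 and 1.18 kb in ASC and 0 kb in FISC. It was tested through its ASC libraries alone, and its values are given as a description. The receptor alpha chain genes Il11ra1 and Cntfr fell, from 1.91 and 1.91 to 0 and 0.465 kb (limma adjusted p = 0.00554) and from 1.51 and 1.90 to 0.346 and 0.681 kb (0.0142). In all, 2 of 4 further receptors fell at their ends and 0 rose, beside 3.61 and 26.5% of all genes. These falls were also called after division by total covered length and at equal covered length. Il6ra, the gene of the IL-6 receptor alpha chain, rose in the body. It was covered there over 1.604 and 1.925 kb in ASC and 0.215 and 0 kb in FISC (limma adjusted p = 0.00715). In the body 1 of 2 receptors rose, beside 42.8% of all genes. In the flank 1 of 4 rose, beside 46%, and 0 of 4 after division by total covered length. Osm, the oncostatin M gene beside Lif, was uncovered at its ends and body in all 4 libraries. Its flank, which overlaps that of Lif, was 5.53 and 7.07 kb in ASC and 7.26 and 4.49 kb in FISC (0.754).

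Among kinases and STATs, 0 of 6 tested genes passed limma in end breadth, beside 26.5% of all genes higher and 3.61% lower. An unadjusted limma p under 0.05 was found for 1 (Tyk2), and over all genes for 6000 of 12924 in either direction. After division by total covered length 2 of 5 STATs were called lower, as were 36.6% of all genes. Tyk2, a kinase of the same family, was covered over 1.01 and 1.54 kb in ASC and 0.660 and 0.613 kb in FISC at its ends (limma adjusted p = 0.0678). Jak3 carried 0.263 kb in ASC replicate 2 and 0 elsewhere. Stat6 held 2.85 and 3.02 kb in ASC and 2.91 and 2.10 kb in FISC (0.304), and Stat5a 1.24 and 1.55 against 1.69 and 1.86 kb (0.134). In the body the 1 kinase tested rose (Tyk2, through its ASC libraries alone). Of 2 STATs tested there 1 fell (Stat5b), beside 42.8% higher and 9.73% lower of all genes. In the flank 1 of 2 kinases (Tyk2) and 1 of 6 STATs (Stat2) rose and 0 fell, beside 46 and 5.71%. Division by total covered length left 1 kinase higher and 4 STATs lower in the flank, beside 24.5 and 31.1%.

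Of the inhibitors, 5 of 15 were called higher and 0 lower in end breadth, beside 26.5 and 3.61% of all genes; these counts turned to 0 higher and 4 lower after division by total covered length and were 3 and 0 at equal covered length. In flank breadth 10 of 14 were higher and 0 lower, beside 46 and 5.71% of all genes, and the counts were 5 and 2 and 2 and 2 in those settings. Of all genes, 9.19 and 36.6% (end) and 24.5 and 31.1% (flank) were called higher and lower after division. At equal covered length these shares were 15.8 and 13.1% and 18.4 and 21.1%. Socs4 and Socs1, of the same family as Socs3, rose at their ends, to 3.16 and 3.17 kb from 1.84 and 1.88 kb (limma adjusted p = 0.00498) and to 5.25 and 4.85 kb from 3.99 and 3.95 kb (0.0246). After division by total covered length neither was called, at 0.218 kb for Socs4 (adjusted p = 0.410) and -0.923 kb for Socs1 (0.0908). At equal covered length both were called, at 1.31 kb for Socs4 (adjusted p = 0.00687) and 1.08 kb for Socs1 (0.0296). In the body 3 of 5 inhibitors rose and 1 fell, beside 42.8 and 9.73% of all genes. Socs5 and Ptpn11 were tested there through their ASC libraries alone, so this count carries no support of its own. Among targets of STAT3, 3 of 18 rose and 1 fell at the ends (26.5 and 3.61% of all genes), and 12 of 21 rose and 1 fell in the flank (46 and 5.71%). Division by total covered length gave 1 higher and 13 lower target genes at the ends, beside 9.19 and 36.6% of all genes. In the flank it gave 3 and 4, beside 24.5 and 31.1%. Timp1, an inhibitor of matrix proteases, was covered over 3.02 and 3.01 kb in ASC and 0.206 and 0 kb in FISC (0.00193). Cebpd, a transcription factor gene, fell from 4.37 and 4.35 kb to 2.15 and 2.06 kb (0.00238).

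**Figure D5:**
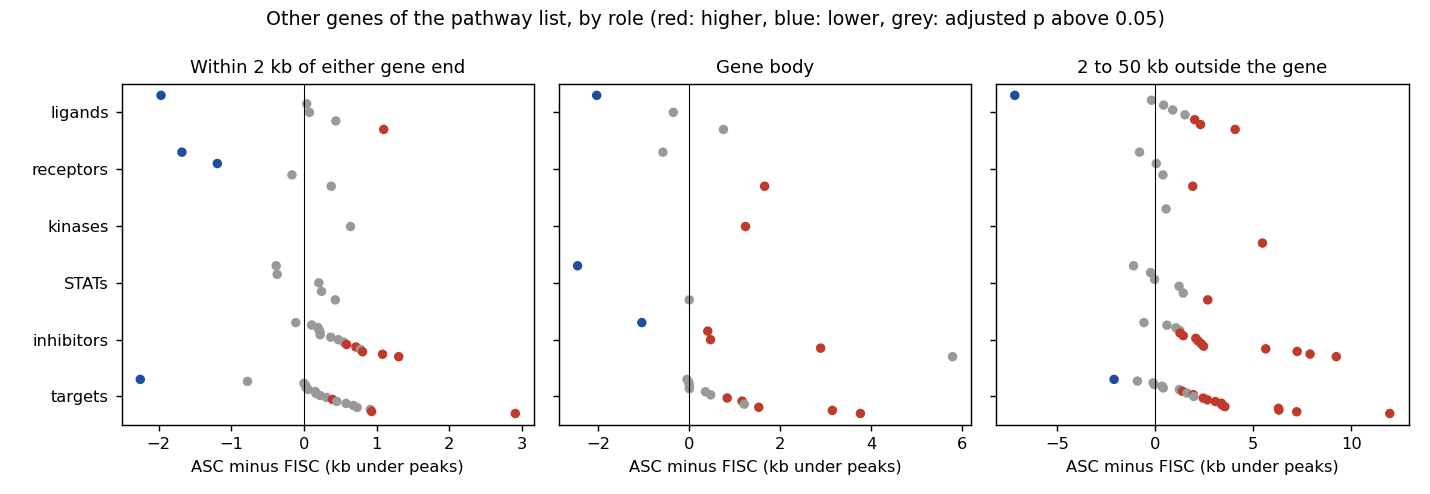
Difference in breadth, ASC minus FISC (kb, x axis), of each tested gene of the pathway list, by role (y axis), with red and blue for genes called higher and lower by limma and grey for the rest. Without scaling, inhibitors called at the ends or in the flank are all on the right. Division by total covered length gave 0 inhibitors higher and 4 lower at the ends, beside 9.19 and 36.6% of all genes. At their ends 2 receptors are called on the left.

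Markers of cell types gave the following end breadths in the same libraries, and single markers are named after their values were seen. Satellite cell markers were covered over 30.2 and 32.3 kb in ASC and 29.0 and 29.8 kb in FISC, with all 10 covered in at least 1 library. Of these 10, 3 were called higher (Vcam1, Itga7 and Fgfr4) and 2 lower (Chodl and Calcr), beside 26.5 and 3.61% of all genes. Calcr was tested through its FISC libraries alone. Myeloid markers summed to 3.88 and 6.65 kb in ASC and 2.35 and 2.194 kb in FISC, with Ptprc, Adgre1, Lyz2, Itgam, Tyrobp and Cx3cr1 at 0 in all 4 (6 of 10). Cd14, of the same list, rose from 0.586 and 0.704 kb in FISC to 1.46 and 1.48 kb in ASC (limma adjusted p = 0.00917), and Cd68 was covered over 1.87 and 3.50 against 1.55 and 1.05 kb (0.118). Fibro-adipogenic markers summed to 5.52 and 6.52 against 4.57 and 4.77 kb, with Pdgfra, Col1a1, Dcn and Lum at 0 (4 of 8). Ly6a, also of that list, held 1.44 and 2.42 kb in ASC and 0 in FISC, and Dpt fell (adjusted p = 0.0123). Endothelial markers summed to 1.22 and 1.79 against 2.37 and 2.56 kb, with Pecam1, Cdh5, Emcn and Tie1 at 0 (4 of 8). Lymphoid markers summed to between 1.12 and 1.53 kb, with 6 of 8 at 0, and smooth muscle and pericyte markers to between 6.79 and 8.03 kb, with Rgs5 at 0 (1 of 6). In that last list Notch3 rose (adjusted p = 0.00998) and Pdgfrb (0.0134) and Cspg4 (0.0423) fell. The part of the myeloid and fibro-adipogenic marker lists, higher in both ASC libraries, in the results above was not tested, and in bulk samples a change in cell number cannot be told apart from a change per cell.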

How the data were processed

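H3K27ac ChIPmentation was analysed from 4 deposited narrow peak lists, 1 for each ASC and FISC library; no input list was used. Lists were matched to samples by the condition and replicate in their names; peaks inside the FISC lists are called yqsc and inside the ASC lists yasc, abbreviations that the labels do not explain. Per the submitters' processing notes the authors used bcl2fastq 2.19, BWA, Picard and MACS2 with mm10. Settings, other versions, inputs and duplicates: not given in the sources used here. Deposited fold enrichment is a ratio at the peak summit. Deposited significance columns are −log10 p and −log10 q, and the deposited score follows the −log10 q; they ranked or filtered peaks within a list only.

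Breadth was summed with Python 3.11.15, and gene positions, start sites and promoters came from RefSeq on GRCm38.p6. The fit, by limma 3.58.1 in R 4.3.3 (eBayes with trend, linear kb, no scaling), took every gene with peaks in 2 or more libraries, with Benjamini-Hochberg adjustment and a threshold of 0.05. The fit was tested on simulated data. Union regions needed an overlap of 1 base. The pathway list named Osm and, per role, the 2 genes with the largest end difference, and regions were named by start site and greatest width. One gene that this rule names is not reported here. Likeness was Euclidean distance over the 4 libraries and 3 measures. Members and lists were chosen with earlier results of these data known. Alternatives were peak cut-offs, equal number or covered length of peaks, division by total covered length (rescaled to the mean total), joined peaks, other windows and flanks, a replicate block and each library left out. The deviations of same-numbered replicates correlated at -0.0231 for end, 0.0587 for body and -0.124 for flank breadth, so the numbers were not taken to pair the samples.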

Additional observations from a re-analysis of the deposited data

How the results depend on the processing

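Of 302 single values recomputed for the 9 genes under other settings, 236 kept their direction and side of the threshold, 26 lost a call, 17 gained one and 23 reversed. The covered total differed between conditions, and the settings that equalise it moved the most values. Read depth is unknown and limits what the absence of a peak means.

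End calls, higher: 1 at a minimum fold of 5 (Socs3), with the replicate block (Socs3), at 1 kb windows (Il6) and at 5 kb windows (Osmr), and 0 to 3 with 1 library left out. End calls, lower: 0 at a minimum −log10 q of 5, at a minimum fold of 5, with peaks joined within 500 bases, with genes covered in at least 1 library, with the replicate block, at 1 or 5 kb windows, at the annotated start and with each library left out, against 2 at equal covered length (Lif, Stat3) and 5 divided by total covered length (Lif, Osmr, Il6st, Stat3, Jak2). Body calls, higher: 0 at equal covered length and 2 to 5 with 1 library left out. Body calls, lower: 0 at a minimum fold of 5 and 0 to 1 with 1 library left out. Flank calls, higher: 1 at equal covered length (Lif) and 7 at 100 kb. Flank calls, lower: 1 (Stat3) at equal covered length and divided by total covered length.

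Divided by total covered length, differences reversed to -0.601 (Osmr end), -1.17 (Il6st end), -0.459 (Socs3 end), -0.359 (Jak1 end), -0.750 (Jak2 end), -0.0690 (Socs3 body), -0.0448 (Osmr flank) and -0.150 kb (Jak2 flank). At equal covered length they reversed to -0.345 (Lif body), -0.602 (Il6st body), -0.498 (Stat3 body), -1.72 (Socs3 flank) and -0.511 kb (Jak2 flank). Jak2 flank was also -0.344 at a minimum −log10 q of 5, -0.0825 at a minimum fold of 5 and -0.0655 kb at an equal number of peaks. Stat3 end was 0.249 kb at 5 kb windows and -0.152 to 0.149 kb with 1 library left out. Stat3 flank was 0.5995 at a minimum fold of 5, 1.99 with other protein-coding genes left out and -1.93 to 1.10 kb with 1 library left out, and Osmr flank -0.1 to 0.183 kb. Apart from the settings themselves, the cause was not tested.

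Over all genes, higher and lower end calls were 1908 and 1580 at equal covered length, 1188 and 4735 divided by total covered length, 1912 and 226 at 1 kb windows, and 677 to 3530 and 62 to 373 with 1 library left out; at a minimum fold of 5 282 were lower. Body calls were 992 and 1598, 2352 and 1335, and with 1 library left out 1016 to 1862 and 153 to 433; at a minimum fold of 5 261 were lower. Flank calls were 2698 and 3096, 3912 and 4965, 4381 and 746 at 20 kb, 4180 and 789 with other genes left out, and with 1 library left out 4710 to 8340 and 522 to 1140; at a minimum fold of 5 519 were lower.

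With the replicate number as a block, 3001 genes rose and 432 fell in end, 2746 and 593 in body, and 7412 and 983 in flank breadth. Crossed numbers, chosen after seeing the data for flank breadth, gave 7969 and 1061.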
